A study of Rattus norvegicus with 60 samples.

Results

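Cholesterol synthesis was followed through 8 genes in the hippocampus of the rat. They are Hmgcs1, Idi1, Fdps, Fdft1, Sqle, Cyp51 and Dhcr7, which encode enzymes of the pathway, and Insig1, which encodes a membrane protein that restrains it. The genes were found by matching each probe's symbol on an Illumina rat bead array to these names, ignoring case. Of the 8 genes, 7 had a probe, 1 each, among 22523 probes with 21480 distinct symbols. Insig1 had no probe of that symbol in the table used, so its level was not measured. RefSeq places Hmgcs1 and Fdps on chromosome 2, Idi1 on 17, Fdft1 on 15, Sqle on 7, Cyp51 on 4 and Dhcr7 on 1.

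RNA came from F344BN rats, F1 hybrids of the Fischer 344 and Brown Norway strains. Aged rats of 24 months had been sorted into impaired and intact groups, and adults of 12 months were the younger group. CA1, CA3 and the dentate gyrus (DG) had 4 impaired, 4 intact and 4 adult samples each. Whole hippocampus had 9 impaired, 9 intact and 6 adult samples. The measure behind impaired and intact is not given in the sources used here, and the labels name no treatment or altered gene. Each sample was 1 array, and no label ties samples to separate animals, so p-values measure the spread between samples, part of which may be technical. In dissected tissue, fewer cells of a type and less RNA per cell cannot be told apart.

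Cells build cholesterol from acetyl units. Early enzymes make isoprenoids by way of mevalonate, squalene synthase then joins the isoprenoid farnesyl groups, and a last set of enzymes turns squalene into cholesterol. The genes share a regulator: when membranes lack sterol, the protein Scap carries SREBP2 to be cut, and the freed factor enters the nucleus and raises transcription of the enzymes. Insig proteins hold Scap back when sterol is plentiful. The brain makes nearly all of its own cholesterol, for myelin and for the membranes and synapses of neurons.

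The sequences upstream of these genes are shown as background to the shared regulator, and their part in the enzyme levels was not tested. SREBP2 acts at sterol regulatory elements together with NF-Y, which binds CCAAT boxes, and Sp1, which binds GC boxes. RefSeq's promoter table for GRCr8 held 6 of the 8 genes, and Sqle and Fdft1 were not in it. Below are the 250 bases before the start listed there for 4 genes, read 5′ to 3′ on the gene's strand. CCAAT and GGGCGG are in capitals on either strand (read as ATTGG and CCGCCC on the other). The windows lie at chr2:53382054-53382303 (plus strand) for Hmgcs1, chr17:66547525-66547774 (minus) for Idi1, chr2:176804817-176805066 (minus) for Fdps and chr4:30991443-30991692 (plus) for Cyp51. The Hmgcs1 window lies inside that gene's annotated span, which begins upstream of it at 53379457.
Hmgcs1: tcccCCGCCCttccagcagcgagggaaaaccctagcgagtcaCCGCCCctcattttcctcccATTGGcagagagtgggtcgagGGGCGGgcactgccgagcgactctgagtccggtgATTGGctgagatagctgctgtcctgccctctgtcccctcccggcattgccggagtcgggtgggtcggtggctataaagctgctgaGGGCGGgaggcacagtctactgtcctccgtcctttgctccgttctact
Idi1: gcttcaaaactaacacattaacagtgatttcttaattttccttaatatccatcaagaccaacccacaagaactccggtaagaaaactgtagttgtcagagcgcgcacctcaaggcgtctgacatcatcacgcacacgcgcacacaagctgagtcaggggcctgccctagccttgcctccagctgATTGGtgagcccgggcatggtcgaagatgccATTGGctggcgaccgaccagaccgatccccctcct
Fdps: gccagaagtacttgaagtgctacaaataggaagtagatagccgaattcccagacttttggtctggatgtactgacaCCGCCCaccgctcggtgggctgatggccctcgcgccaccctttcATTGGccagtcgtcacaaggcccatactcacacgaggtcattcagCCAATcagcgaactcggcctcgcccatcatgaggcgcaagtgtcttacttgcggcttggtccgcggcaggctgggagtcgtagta
Cyp51: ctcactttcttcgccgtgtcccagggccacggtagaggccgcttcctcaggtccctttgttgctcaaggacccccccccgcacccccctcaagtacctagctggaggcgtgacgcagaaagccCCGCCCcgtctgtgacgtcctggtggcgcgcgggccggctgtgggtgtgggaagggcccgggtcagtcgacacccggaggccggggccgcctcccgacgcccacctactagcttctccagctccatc

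Hmgcs1 held 2 CCAAT and 4 GGGCGG matches in this window. Idi1 held 2 CCAAT and 0 GGGCGG matches, Fdps 2 and 1, and Cyp51 0 and 1. Over the 6 genes in the table, 4 held CCAAT and 5 held GGGCGG, against 34% and 30.5% of the 33465 promoters of this length. The letters TCACNCCAC, a form of the sterol regulatory element, were in 0 of the 6 windows and in 0.974% of all promoters. No 2 of the matches shown overlapped. These are matches of letters in 1 short window, and binding was not measured.

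Array quality bears on CA1. The array of CA1 adult replicate 4 detected 22.2% of probes, where the other 59 arrays detected between 40.6% and 47.2%. Many values that rest on it are therefore given with it and without it, in the second case with all steps repeated over 59 arrays. Other CA1 values include it. The arrays had median raw signals between 54.4 and 128. No 2 arrays held the same signals. Of the subregion markers, 4 of 4 CA1 markers had their highest mean in CA1, 4 of 4 CA3 markers in CA3 and 2 of 3 DG markers in DG. The CA1 marker Wfs1 averaged 9.70 in CA1, 6.59 in CA3 and 5.90 in DG on the log2 scale. Nectin3, a marker of CA3, averaged 5.25, 7.94 and 6.48 in that order of regions, and Prox1, of dentate granule neurons, 5.59, 5.50 and 7.05. The CA3 marker Grik4 hardly differed, at 5.31, 5.44 and 5.21, and the DG marker Tdo2 was dim in all 3, at 4.74, 4.83 and 4.70. Both were detected on too few subregion arrays to be tested. Among the markers tested, 3 of 3 CA3 markers were highest in CA3 and 2 of 2 DG markers in DG.

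Enzyme levels differed between the subregions, and all 7 enzymes had their highest mean in CA3. The F test over CA1, CA3 and DG called 7 of 7 enzymes (limma, adjusted p between 1.5e-10 and 0.00596), beside 56.9% of the 10927 probes tested. A mean that is highest in CA3 was held by 31.2% of these probes. In 5 of the 7 the mean was lowest in CA1, as in 37.2% of probes, and without CA1 adult replicate 4 in 4 of the 7, as in 31.2%. Because CA1, CA3 and DG were each hybridised to a single, separate slide, a regional difference and a slide difference cannot be told apart here. Values below are log2 normalized intensities, in which a difference of 1 is a doubling, and are compared within a gene only.

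The first steps of the pathway are represented by Hmgcs1, Idi1 and Fdps. Hmgcs1, the cytosolic synthase that supplies the substrate of mevalonate formation, had a lowest, median and highest array value of 12.60, 12.83 and 13.48 in CA1. The same values were 12.69, 13.02 and 13.19 in CA3, and 12.26, 12.53 and 12.87 in DG. CA3 was higher than DG by 0.43 ± 0.09 (SE, adjusted p = 0.000137, limma), and 10 of 12 CA3 arrays lay above every DG array. CA1 minus CA3 was -0.15 ± 0.09, which did not pass (adjusted p = 0.205, 95% interval -0.32 to 0.03). Without CA1 adult replicate 4, whose value of 13.48 was the highest in any region, it was -0.21 and passed (adjusted p = 0.0157).

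Idi1 encodes the isomerase that readies isoprenoid units for joining. Its CA1 arrays ran from 7.71 to 8.59 around a median of 8.34, its CA3 arrays from 8.99 to 9.42 around 9.16, and its DG arrays from 8.70 to 9.13 around 8.91. Every CA3 array lay above every CA1 array, and 6 of 12 CA3 arrays lay above every DG array. CA1 minus CA3 was -0.88 ± 0.08, a CA1 level 0.545 times that of CA3 (adjusted p = 1.78e-10). CA1 was also below DG, by -0.61 ± 0.08 (adjusted p = 1.21e-07), and CA3 was above DG by 0.26 ± 0.08 (adjusted p = 0.00711). Leaving out the weak CA1 array gave -0.82 for CA1 minus CA3.

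Fdps, the synthase of farnesyl diphosphate, ran from 6.75 to 9.13 in CA1 with a median of 8.82. In CA3 it ran from 8.90 to 9.24 with a median of 9.12, and in DG from 8.08 to 8.99 with a median of 8.69. CA1 minus CA3 was -0.52 ± 0.15 (adjusted p = 0.0073), and CA3 minus DG was 0.45 ± 0.15 (adjusted p = 0.0138). CA1 and DG overlapped, with a difference of -0.07 ± 0.15 (adjusted p = 0.73). The value of 6.75 belonged to CA1 adult replicate 4, where Fdps was not detected, and without it CA1 minus CA3 was -0.38 (adjusted p = 0.00229) and CA1 minus DG turned to 0.07 (adjusted p = 0.544).

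Of the squalene steps, Fdft1 and Sqle separated CA3 from CA1 array by array. Fdft1, the squalene synthase, had a lowest, median and highest value of 7.49, 9.46 and 9.62 in CA1. In CA3 these were 9.87, 10.06 and 10.21, and in DG 9.24, 9.54 and 9.87. Its CA3 arrays all lay above every CA1 and every DG array. CA1 minus CA3 was -0.71 ± 0.15 (adjusted p = 0.000428) and CA3 minus DG was 0.47 ± 0.15 (adjusted p = 0.011). Sqle encodes squalene epoxidase, a rate-limiting enzyme of the pathway. Its CA1 arrays gave 6.13, 9.68 and 9.98 for the same 3 measures, its CA3 arrays 10.27, 10.36 and 10.48, and its DG arrays 9.78, 9.98 and 10.30. For Sqle too, the lowest CA3 array lay above the highest CA1 array.

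The size of the Sqle and Fdft1 differences depended on 1 array. CA1 adult replicate 4 read 6.13 for Sqle and 7.49 for Fdft1, and detected neither. With it, Sqle had a CA1 minus CA3 difference of -0.95 ± 0.24 (adjusted p = 0.00259) and a CA3 minus DG difference of 0.37 ± 0.24, which did not pass (adjusted p = 0.227). Without it, the Sqle differences were -0.65 (adjusted p = 1.02e-10) and 0.37 (adjusted p = 1.76e-06), and CA1 minus DG was -0.28 in place of -0.58. Fdft1 without it had a CA1 minus CA3 difference of -0.54 (adjusted p = 1.55e-07).

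Cyp51 and Dhcr7 act on the sterol rings. Cyp51, the lanosterol demethylase, was dim: it was detected on 7 of 12 CA1 arrays, 12 of 12 CA3 arrays and 5 of 12 DG arrays. It ran from 4.65 to 6.13 in CA1 (median 5.76), from 5.77 to 6.50 in CA3 (median 6.25) and from 5.10 to 6.35 in DG (median 5.52). CA1 minus CA3 was -0.55 ± 0.13 (adjusted p = 0.00171) and CA3 minus DG was 0.62 ± 0.13 (adjusted p = 0.00026). Without CA1 adult replicate 4, which held the lowest CA1 value, CA1 minus CA3 was -0.48 (limma, adjusted p = 0.00153). Dhcr7, the reductase of the last step, ran from 8.65 to 9.01 in CA1 (median 8.86), from 9.01 to 9.37 in CA3 (median 9.21) and from 8.85 to 9.49 in DG (median 9.09). CA1 lay below CA3 by -0.34 ± 0.07 (adjusted p = 0.000488) and below DG by -0.28 ± 0.07 (adjusted p = 0.00247). CA3 and DG overlapped widely for Dhcr7, and their difference of 0.07 ± 0.07 had an interval of -0.08 to 0.21 (adjusted p = 0.514).

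**Figure D1:**
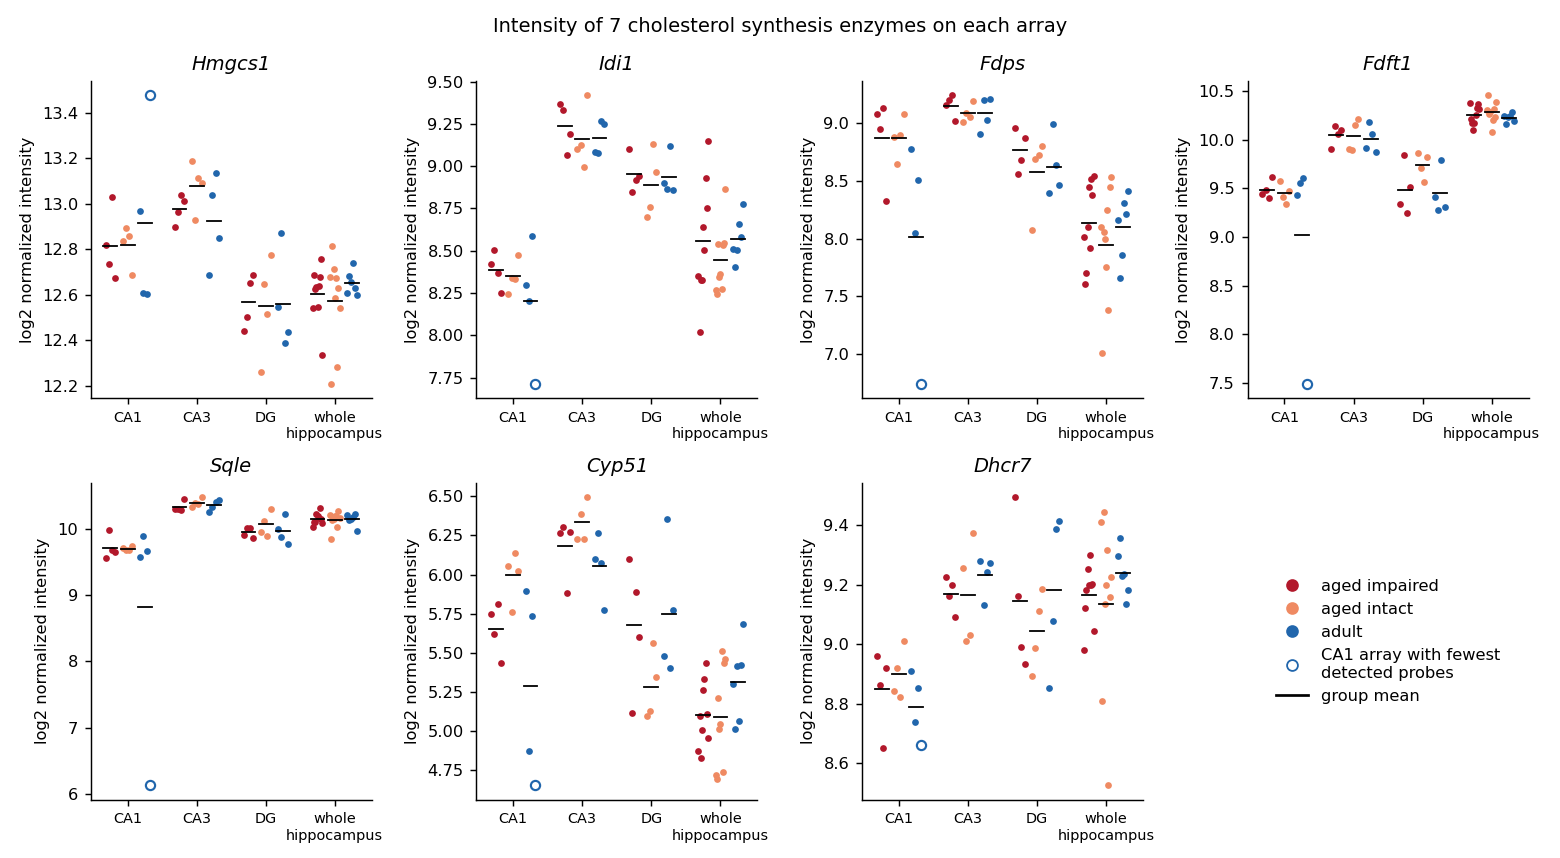
Log2 normalized intensity (vertical axes, each on its own range) of the 7 enzymes on every array, by region and rat group, with black bars for group means and an open circle for CA1 adult replicate 4. The CA3 arrays sit highest of the 3 subregions in mean for each enzyme, and the open circle sits far below the other CA1 arrays for Sqle (6.13) and Fdft1 (7.49).

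Counted together, 6 enzymes were higher in CA3 than in CA1 and 5 were higher in CA3 than in DG, beside 15.6% and 19.7% of all probes. Without CA1 adult replicate 4 these counts were 7 and 6, beside 21.1% and 29.4%. Counted in either direction with all arrays, CA1 and CA3 differed in 6 of 7 enzymes (29.6% of probes), CA1 and DG in 4 of 7 (44%) and CA3 and DG in 5 of 7 (39.5%). Of the CA1 and DG calls, that of Sqle (adjusted p = 0.0464, limma) held in 12 of 44 alternative settings, and without CA1 adult replicate 4 its difference of -0.28 passed (adjusted p = 0.000149). CA3 was above both other regions in 4 of 7 (Idi1, Fdps, Fdft1 and Cyp51), beside 6.7% of probes. Without CA1 adult replicate 4 that was so in 6 of 7, beside 11.6%. All CA3 arrays lay above all CA1 arrays for 3 of 7 enzymes, beside 2.86% of probes, and above all DG arrays for 1 of 7, beside 6.15%. Split by rat group, the same arrays gave the highest mean in CA3 for 7 of 7 in impaired, in intact and in adult rats. The share of all probes was not counted by rat group. Some of these means were close. With CA1 adult replicate 4 included, Hmgcs1 in adults averaged 12.93 in CA3 and 12.91 in CA1. Dhcr7 in impaired rats averaged 9.17 in CA3 and 9.14 in DG. The median enzyme had a CA1 minus CA3 difference of -0.55 and a CA3 minus DG difference of 0.43, beside medians of -0.02 and 0.00 over all probes. Without CA1 adult replicate 4 the enzyme medians were -0.48 and 0.43, beside 0.00 and 0.00.

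The regional order was also read on other scales. On the authors' processed values 6 of 7 enzymes were highest in CA3, the exception being Dhcr7, and 0 passed both CA3 tests, beside 4.05% of probes. With arrays scaled to equal medians in place of quantiles, all 7 stayed highest in CA3, but so were 58.9% of probes. That scaling moved the median of all probes to -0.34 for CA1 minus CA3 and 0.15 for CA3 minus DG, and the median enzyme to -0.93 and 0.61.

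Other enzymes of the pathway were also highest in CA3. Of 17 enzymes read, 10 of which are not among the 7, all 17 had their highest mean in CA3, beside 31.2% of probes. The F test passed in 6 of the 10 others, a share near the 56.9% of all probes. Without CA1 adult replicate 4 it passed in 10 of 10, beside 72.8% of probes. On the mevalonate side it called 3 of the 4 others, Acat2, Mvd and Pmvk. Acat2, which condenses acetyl units, averaged 10.67 in CA1, 11.69 in CA3 and 10.95 in DG. Mvd, the mevalonate diphosphate decarboxylase, averaged 8.96, 9.56 and 8.74 in those regions. On the squalene side it called 3 of the 6 others, Hsd17b7, Nsdhl and Sc5d. Nsdhl, a sterol dehydrogenase that helps remove methyl groups from the ring, averaged 8.04 in CA1, 9.05 in CA3 and 8.76 in DG. Ggps1, Ebp, Msmo1 and Tm7sf2 did not pass at the brightest probe, with adjusted p between 0.167 and 0.359, and a second Tm7sf2 probe did (adjusted p = 0.0427). These counts come from the same 36 arrays as those of the 7 enzymes.

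**Figure D2:**
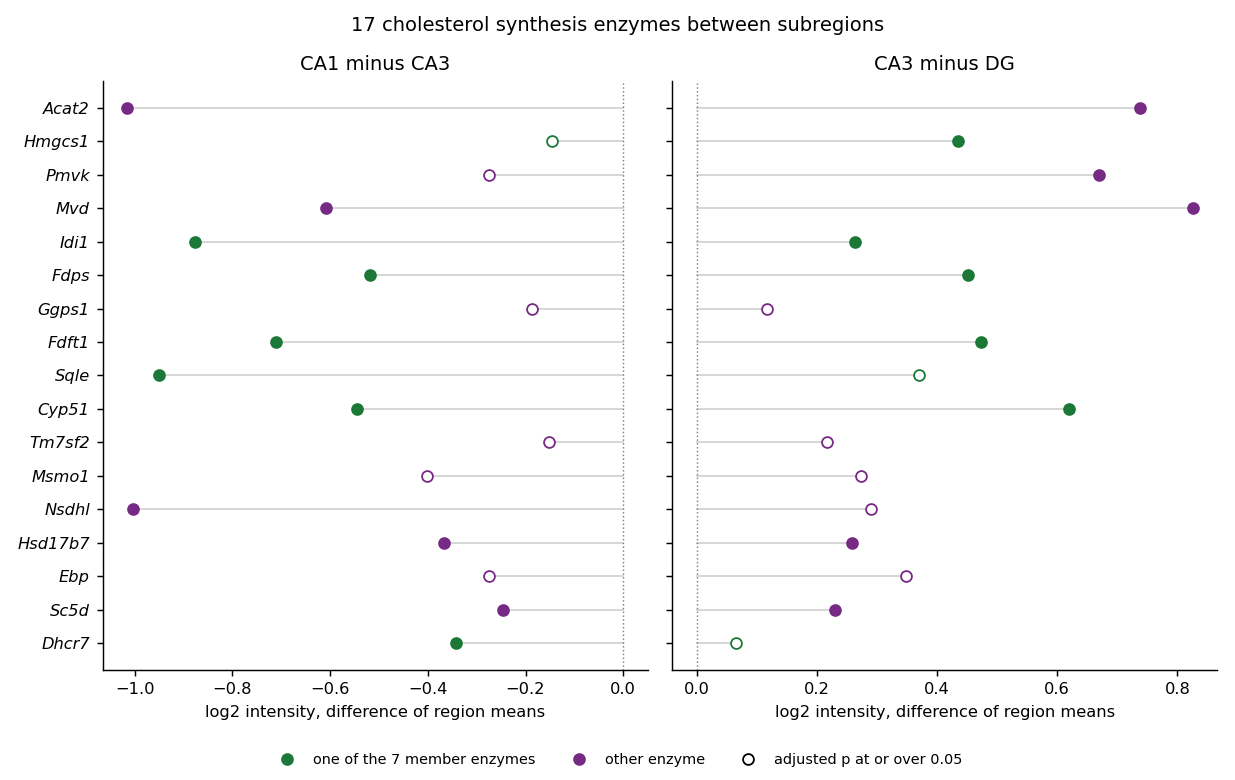
Difference of region means in log2 intensity (horizontal axes) for 17 enzymes in pathway order, CA1 minus CA3 on the left and CA3 minus DG on the right, green for the 7 enzymes followed here and purple for the 10 others, with open circles where the pairwise test did not pass. All points lie below 0 on the left and above 0 on the right, for example Acat2 at -1.01 and 0.74 and Dhcr7 at -0.34 and 0.07.

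The regulators were not all highest in CA3. Of 6 measured genes of SREBP processing, 2 were highest in CA3. Srebf2, which encodes SREBP2, averaged 6.44 in CA1, 7.10 in CA3 and 7.01 in DG, with a CA1 minus CA3 difference of -0.66 (adjusted p = 0.0297). Leaving out CA1 adult replicate 4 gave -0.48 (adjusted p = 0.0385). The limma F test over the subregions passed for Srebf2 with that array (adjusted p = 0.0298) and did not pass without it (adjusted p = 0.0526). Srebf1, whose product drives mainly fatty acid genes, was highest in CA1, with means of 9.88, 9.48 and 9.20 in the same order. Insig2, the measured relative of Insig1, was highest in DG at 10.63, with 10.19 in CA1 and 10.36 in CA3. Among 5 tested genes of sterol uptake and other SREBP2 targets 3 were highest in CA3. Npc2 was highest in CA1, at 12.22, 12.12 and 11.60 in the same order, and Lpin1 in DG. Stard4, a sterol carrier, was higher in CA3. Its CA1 mean was 5.96, its CA3 mean 6.90 and its DG mean 5.93 (adjusted p = 5.59e-08 against CA1 and 1.33e-08 against DG). Of 10 tested fatty acid synthesis genes 7 were highest in CA3, and of 8 tested genes of sterol turnover 1 was. Without CA1 adult replicate 4 these counts were 6 and 1.

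Markers of cell types also differed between the dissected regions. Neuron markers were highest in CA3 for 7 of 8 and lowest in CA1 for 7 of 8, with median differences of -0.66 for CA1 minus CA3 and 0.29 for CA3 minus DG. Their summed raw signal per array ran from 7098 to 66295 in CA1 (from 32647 without CA1 adult replicate 4), from 69311 to 96310 in CA3 and from 37763 to 72941 in DG. Oligodendrocyte and myelin markers were highest in CA3 for 10 of 12, with medians of -0.18 and 1.46 for the same differences, and without CA1 adult replicate 4 for 8 of 12, with medians of -0.08 and 1.46. Their summed raw signal ran from 7090 to 39395 in CA1 (from 22290 without that array), from 32252 to 49790 in CA3 and from 9253 to 17950 in DG. Astrocyte markers were highest in CA3 for 1 of 7 and microglia markers for 2 of 6, and without that array for 0 of each. No marker of neurons or astrocytes was undetected in every array of a group, and 1 oligodendrocyte marker was in DG. The part of these markers in the enzymes' order was not tested.

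Whole hippocampus was measured on 2 further slides. Fdft1 ran from 10.08 to 10.45 (median 10.25), Sqle from 9.86 to 10.32 (median 10.16) and Hmgcs1 from 12.21 to 12.81 (median 12.63). Dhcr7 ran from 8.53 to 9.44 (median 9.20), Idi1 from 8.02 to 9.15 (median 8.51) and Fdps from 7.01 to 8.54 (median 8.10). Cyp51 was detected on 2 of 24 arrays, both adult, and was not tested there. Levels of 2 enzymes moved with the slide: on the second slide Fdps was higher by 0.43 ± 0.13 (adjusted p = 0.018) and Idi1 by 0.33 ± 0.08 (adjusted p = 0.0043). That is 2 of 6 enzymes, beside 21.9% of probes. The Fdps shift was near its CA3 minus DG difference of 0.45, and the Idi1 shift exceeded its difference of 0.26. Mean Fdft1 was 10.26 in whole hippocampus, above its highest subregion mean of 10.03 in CA3. Fdps averaged 8.06, below its lowest subregion mean of 8.59 in CA1, and Cyp51 averaged 5.15, below its lowest of 5.57 in DG. Means of Hmgcs1, Sqle, Idi1 and Dhcr7 lay within their subregion range. Tissue and slide cannot be told apart here.

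The design set aged against adult rats, and no enzyme passed the test between aged and adult rats in any region. Aged is here the mean of the impaired and intact groups. Calls were 0 of 7 in CA1, 0 of 7 in CA3, 0 of 7 in DG and 0 of 6 in whole hippocampus, beside 0.0501%, 0.912%, 0.0296% and 0.318% of all probes. At an unadjusted p under 0.05 limma gave 2 enzymes in CA1 and 0 in each other region. In no region did the aged arrays of an enzyme lie wholly on 1 side of the adult arrays, beside 1.02%, 2.44%, 0.276% and 0.174% of probes in the same order of regions. A p that misses the threshold does not show that levels were equal, and intervals are given below.

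CA1 had the widest differences and the weak array. Fdps ran from 8.33 to 9.13 on the 8 aged arrays (median 8.93), against adult values of 8.77, 8.04, 8.51 and 6.75. The difference was 0.85 ± 0.32, with unadjusted p = 0.022 and adjusted p = 0.63 by limma, and all 8 aged arrays lay above the adult mean. Cyp51 ran from 5.44 to 6.13 on aged arrays, against adult values of 5.89, 4.87, 5.73 and 4.65, a difference of 0.54 ± 0.23 (adjusted p = 0.63 by limma). Sqle ran from 9.57 to 9.98 on aged arrays, against adult values of 9.58, 9.90, 9.68 and 6.13. The first 3 adult arrays sat within the aged range for Sqle, and the last of the listed values was the weak array.

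Without CA1 adult replicate 4 the CA1 differences shrank for the enzymes that it read low. Sqle was 0.90 ± 0.57 with that array and 0.00 without it, and Fdft1 was 0.45 ± 0.34 with it and -0.06 without it. Fdps was 0.43 without it (adjusted p = 0.221, limma), and Cyp51 was 0.33 (adjusted p = 0.31, limma). Hmgcs1, which that array read high, was -0.10 ± 0.17 with it and 0.09 without it. Idi1 was 0.17 ± 0.16 and then 0.01, and Dhcr7 0.08 ± 0.12 and then 0.04. The median over the 7 enzymes was 0.45 with the array, beside 0.06 over all probes, and 0.04 without it, beside 0.01.

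In CA3 the age differences ran from -0.06 to 0.20 with a median of 0.03, beside 0.00 over all probes. Cyp51 gave the highest: impaired arrays read 6.27, 6.31, 5.88 and 6.27, intact arrays 6.23, 6.39, 6.23 and 6.50, and adult arrays 6.10, 6.27, 6.07 and 5.77. The Cyp51 difference was 0.20 ± 0.10 (adjusted p = 0.393, limma), and 7 of 8 aged arrays lay above the adult mean. Sqle read between 10.28 and 10.48 on aged arrays and between 10.27 and 10.44 on adult arrays. Its difference was 0.01 ± 0.06 with a 95% interval of -0.13 to 0.14. Over the 7 enzymes no CA3 interval reached below -0.23 or above 0.43.

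In DG differences ran from -0.27 for Cyp51 to 0.16 for Fdft1, with a median of 0.00, beside 0.02 over all probes. Fdft1 ran from 9.24 to 9.87 on aged arrays (median 9.64), against adult values of 9.41, 9.28, 9.79 and 9.31. Cyp51 was detected on 2 of 4 impaired, 1 of 4 intact and 2 of 4 adult arrays there, and its interval was -0.70 to 0.16. Hmgcs1 differed by 0.00 ± 0.12, with aged arrays from 12.26 to 12.77 and adult arrays from 12.39 to 12.87.

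Whole hippocampus, with 18 aged and 6 adult arrays, gave the narrowest interval of the regions for Hmgcs1, Idi1, Sqle and Fdft1. Differences ran from -0.09 for Dhcr7 to 0.04 for Fdft1, with a median of -0.06, beside -0.01 over all probes. Sqle had a lowest, median and highest value of 9.86, 10.16 and 10.32 on aged arrays, against 9.97, 10.17 and 10.23 on adult arrays. The Sqle difference was 0.00 ± 0.06 (95% interval -0.12 to 0.12). Fdft1 ran from 10.08 to 10.45 on aged arrays and from 10.16 to 10.29 on adult arrays, a difference of 0.04 ± 0.05. Fdps, at -0.06 ± 0.15, had the widest interval, -0.36 to 0.24. Within the first and the second slide Fdps differed by -0.07 and -0.06, and Idi1 by -0.17 and 0.01.

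**Figure D3:**
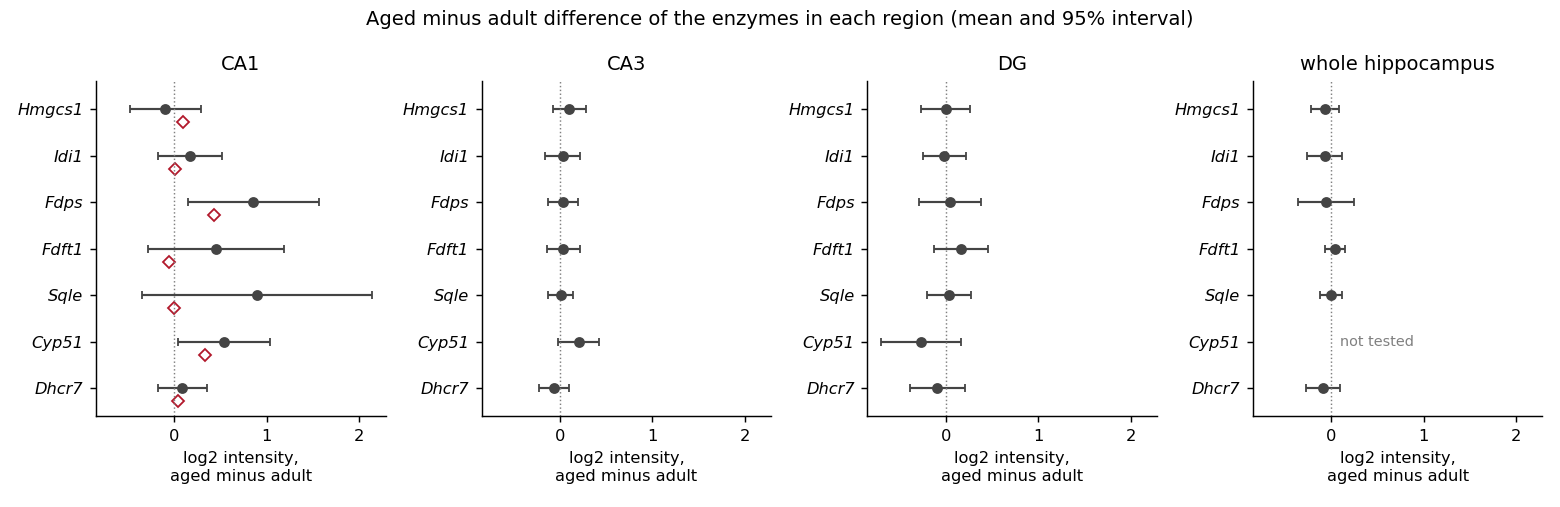
Aged minus adult difference in log2 intensity (horizontal axis) for each enzyme in CA1, CA3, DG and whole hippocampus, as circles with 95% intervals, and as red diamonds in CA1 without adult replicate 4. Intervals in CA1 are the widest, the diamonds of Sqle and Fdft1 sit near 0, and Cyp51 was not tested in whole hippocampus.

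The impaired and intact groups were also set apart from adults one at a time, with the adults shared between both contrasts. In CA1 Cyp51 differed from adults by 0.37 ± 0.27 in impaired and 0.71 ± 0.27 in intact rats. Without CA1 adult replicate 4 these were 0.16 ± 0.20 (adjusted p = 0.786) and 0.50 ± 0.20 (adjusted p = 0.165, limma). In DG the same gene differed by -0.07 ± 0.23 in impaired and -0.47 ± 0.23 in intact rats. In CA3 it differed by 0.13 ± 0.12 in impaired and 0.28 ± 0.12 in intact rats. No enzyme passed in either contrast in any region. In the order CA1, CA3, DG and whole hippocampus, the test of impaired rats called 0.0301%, 0.172%, 0.0296% and 0.26% of all probes. The test of intact rats called 0.0501%, 1.09%, 0.0296% and 0.241%.

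Whether the age difference itself varied between CA1, CA3 and DG was tested by an interaction. It called 0 of 7 enzymes, beside 0.00915% of probes (1 of 10927, with 754 at an unadjusted p under 0.05). Fdps had an unadjusted p of 0.0185 and Cyp51 of 0.022 in this limma F test, with adjusted p of 0.668 and 0.679. The Fdps age difference in CA1 minus that in CA3 was 0.82 ± 0.31 with all arrays and 0.40 without CA1 adult replicate 4.

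No enzyme passed the test between aged impaired and aged intact rats. Calls were 0 of 7, 0 of 7, 0 of 7 and 0 of 6 in CA1, CA3, DG and whole hippocampus, beside 0% of all probes in each. No enzyme reached an unadjusted p under 0.05 by limma in any of these tests. Impaired and intact arrays overlapped for every enzyme, beside 3.29%, 3.77%, 1.55% and 0% of probes without overlap. In whole hippocampus Fdps had a lowest, median and highest value of 7.61, 8.10 and 8.54 in impaired rats, against 7.01, 8.06 and 8.53 in intact rats. The Fdps difference was 0.14 ± 0.15 (95% interval -0.16 to 0.45). Idi1 ran from 8.02 to 9.15 in impaired rats and from 8.25 to 8.86 in intact rats, a difference of 0.08 ± 0.09. Within the first and the second slide the Idi1 difference was -0.10 and 0.24. Hmgcs1, Sqle, Fdft1 and Dhcr7 differed by between -0.03 and 0.04.

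Within the subregions the widest impaired minus intact differences belonged to Cyp51. In DG impaired arrays read 6.10, 5.12, 5.89 and 5.60, against 5.10, 5.13, 5.56 and 5.35 in intact rats, a difference of 0.40 ± 0.23 (95% interval -0.10 to 0.90). In CA1 impaired arrays read 5.75, 5.62, 5.81 and 5.44, against 6.06, 5.76, 6.13 and 6.02 in intact rats, a difference of -0.34 ± 0.27. The signs were thus opposite in DG and CA1, the groups overlapped in both, and Cyp51 was undetected on some arrays of each group. Fdft1 in DG read 9.34, 9.84, 9.24 and 9.51 in impaired rats, against 9.87, 9.71, 9.56 and 9.82 in intact rats, a difference of -0.26 ± 0.16. In CA3 differences ran from -0.15 for Cyp51 to 0.08 for Idi1, and in CA1 the 6 enzymes other than Cyp51 lay between -0.05 and 0.04.

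**Figure D4:**
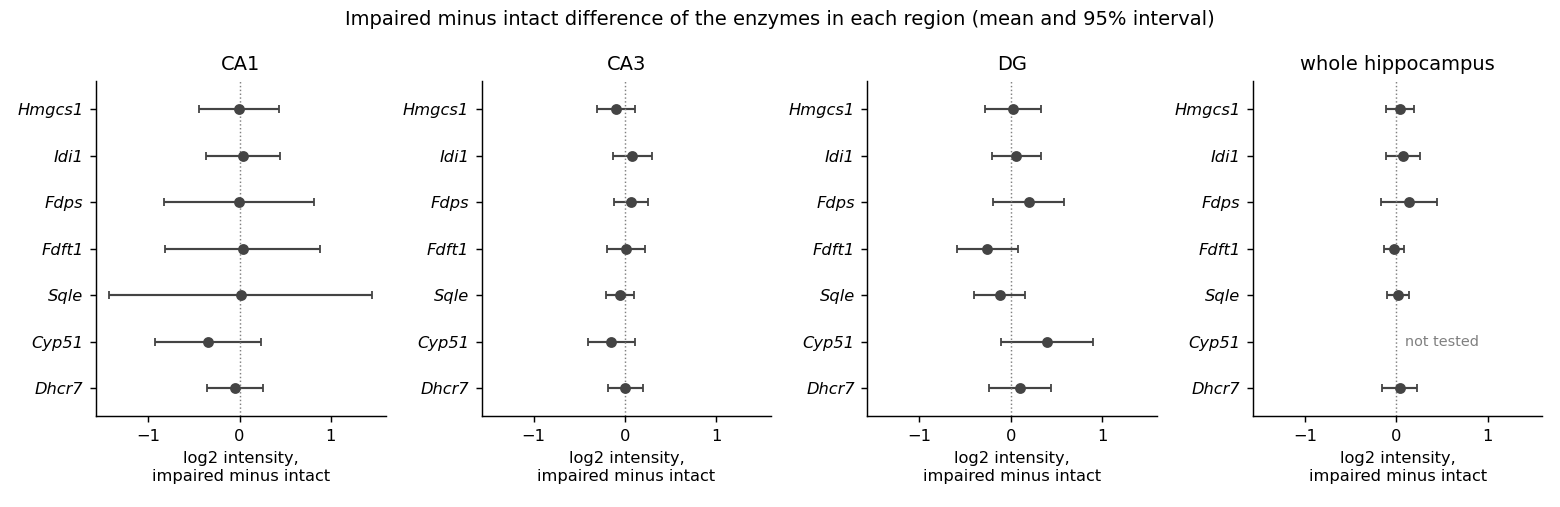
Impaired minus intact difference in log2 intensity (horizontal axis) for each enzyme by region, with 95% intervals. All intervals include 0, and the widest is that of Sqle in CA1.

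The wider sterol lists gave few age calls, and none was an enzyme. Of 7 mevalonate enzymes 0 rose and 0 fell in each region, and of 10 squalene enzymes (9 in whole hippocampus) 0 rose and 0 fell. In the order CA1, CA3, DG and whole hippocampus, the mevalonate median was -0.08, 0.10, 0.03 and -0.06. The squalene median was 0.22, 0.02, 0.04 and 0.00, beside 0.06, 0.00, 0.02 and -0.01 over all probes. These CA1 medians include CA1 adult replicate 4. In the uptake list 1 gene rose in CA3 and in whole hippocampus, Npc2, which encodes the lysosomal protein that hands cholesterol on for export. Npc2 was higher in aged rats by 0.49 ± 0.06 in CA3 (adjusted p = 0.00184, limma) and by 0.46 ± 0.07 in whole hippocampus (adjusted p = 0.000417, limma). In CA1 it differed by 0.86 ± 0.25 and in DG by 0.14 ± 0.09, and neither passed. The CA1 difference was 0.50 ± 0.10 without CA1 adult replicate 4 (adjusted p = 0.0851, limma). Beside it in CA3, 2 of 5 microglia markers, Trem2 and Tyrobp, and 1 of 7 astrocyte markers, Gfap, rose. Only 2 of the 7 astrocyte markers lay above 0 in CA3, and their median was -0.07. In whole hippocampus Trem2 and Gfap rose, 1 of 5 microglia and 1 of 7 astrocyte markers. Of 8 neuron markers 1 was called lower in aged rats in CA3, where their median was -0.09. Of 4 meninges markers 1 was called lower in whole hippocampus. Over all probes the age test called 0.912% in CA3 and 0.318% in whole hippocampus. The summed raw signal of 6 microglia markers in CA3 ran from 5112 to 6048 in impaired, from 5823 to 6842 in intact and from 4272 to 5328 in adult rats. The part of those markers in the Npc2 values was not tested. No gene of SREBP processing, fatty acid synthesis or sterol turnover was called in either direction.

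Array by array, the enzymes were only loosely tied to each other. After the mean of each region, rat group and slide was taken out, the 21 pairs of enzymes had a median Pearson r of 0.32 over 60 arrays and 0.21 over 59, without CA1 adult replicate 4. The median over pairs of 9225 probes was 0.00 over 59 arrays. Over 59 arrays Fdps and Cyp51 had r = 0.55, Fdps and Hmgcs1 0.54, and Fdft1 and Cyp51 -0.42. Among the closest other probes to the enzymes' mean, of 10958 compared over 60 arrays, were Vdac3 (r = 0.91), Eef1e1 (0.90), Cct2 (0.90), Osgin2 (0.89) and Prdx3 (0.89). Over 59 arrays their r was 0.70, 0.65, 0.70, 0.64 and 0.65, and the highest of the named probes reported here was that of Cmpk2 (0.80), which had r = -0.14 over 60. All these points share arrays and their normalization, and no test was made.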

How the data were processed

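Total RNA was extracted with Trizol and a column clean-up with DNase, and biotin-labelled cRNA was put on Illumina bead arrays for the rat, per the labels' protocols. The deposited table holds each probe's average signal intensity, not normalized, and a detection p-value per array, per the file headers. A second deposited table holds the authors' processed intensity values, whose scaling is not given in the sources used here. It served as an alternative. Depth does not apply to arrays, and the number of arrays limits the precision.

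Signals were background corrected and quantile normalized over 60 arrays with neqc in limma 3.58.1 (R 4.3.3, offset 16), with background inferred from the detection p-values. Probes entered a fit if detected (p under 0.01) on at least 4 arrays in a subregion, or 6 in whole hippocampus, which left 9873 to 10370 probes by region. A separate limma fit was made for each region with the 3 rat groups, and the one for whole hippocampus also held the slide. Subregions were compared in a fit of 36 arrays. The two-sided p-values were adjusted by Benjamini-Hochberg over all probes tested, at a threshold of 0.05. The fits were checked on simulated data. Promoters were searched in Python 3.11.15.

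The genes and lists were chosen with earlier results of these data known. All probes of the 8 genes are named. Of other lists, genes called by age are named, at most 4 by smallest p. The neuron and meninges markers called by age are counted but not named. Ggps1, Ebp, Msmo1, Tm7sf2, the subregion markers and Cmpk2 were named after their values were seen. Alternatives changed the background correction, source of values, normalization, filter, samples fitted, array weights, slide and replicate block, or left out arrays. Markers of endothelium (0 of 3 highest in CA3), choroid plexus (1 of 2), meninges (1 of 5) and blood (0 of 2) were also read. Without CA1 adult replicate 4 the choroid plexus count was 2 of 2. Some genes, of the pathway and otherwise, are not reported here.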

Additional observations from a re-analysis of the deposited data

Results flagged for a closer look

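In 9 of 84 groups of 4 to 9 arrays 1 array stood apart from the rest of its group, and chance alone gives about 1 in 20 groups. The array of CA1 adult replicate 4, the one with the fewest detected probes, read 6.13 for Sqle, where the other adults read 9.58 to 9.90. The same array read 7.49 for Fdft1, where the others read 9.43 to 9.60. Neither gene was detected on it.

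The remaining 7 arrays all detected the gene concerned. Cyp51 was low in CA3 impaired replicate 3, at 5.88 where the others read 6.27 to 6.31. Fdps was low in DG intact replicate 1, at 8.08 where the others read 8.69 to 8.80. Hmgcs1 was low in whole hippocampus impaired replicate 9, at 12.33 where the others read 12.54 to 12.75. Sqle was low in whole hippocampus adult replicate 6, at 9.97 where the others read 10.14 to 10.23. Idi1 was high in DG adult replicate 3, at 9.12 where the others read 8.86 to 8.90, and in whole hippocampus intact replicate 9, at 8.86 where the others read 8.25 to 8.55. Sqle was high in CA3 impaired replicate 4, at 10.46 where the others read 10.28 to 10.31.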

How the results depend on the processing

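The count of enzymes called between aged and adult rats in CA1 was 0, and became 3 (Fdps, Sqle and Cyp51) in 1 fit over all 60 arrays, which called 1984 of 9978 probes. Repeated over 59 arrays, a setting added after seeing the data, that fit called 0 enzymes and 68 probes. The other planned settings kept 0 calls in every region for aged against adult and for impaired against intact rats, and 0 for the age difference between subregions. The level test called 7 of 7, except for 5 of 7 on the authors' processed values and 2 of 2 where probes had to be detected on every array, which left 2 enzymes to test. Leaving out each array in turn gave 0 to 0 enzymes for age and impairment and 7 to 7 for level. Over single enzymes and pairs of subregions, 38 of 930 level values lost their call, 32 of them Sqle between CA1 and DG, and 13 gained one. No called value changed sign. Median scaling and normalizing each region alone were added for subregions after seeing the data.

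With the replicate block the counts stayed 0 for every age and impairment test and 7 for level. Same-numbered arrays of different rat groups within a region had a median correlation of 0.02 over 57 pairs (24 over 0.1). Those of different subregions within a rat group had a median of 0.11 over 36 pairs (20 over 0.1, lowest -0.58). With rat group and replicate number as a random block, the common correlation in the subregion fit was 0.012. Differently numbered arrays were not compared, so these values cannot settle whether the numbers pair samples. The main fits did not pair them. Signal over background limits Cyp51, which was detected on 7 of 12 CA1, 5 of 12 DG and 2 of 24 whole hippocampus arrays.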
